A study of Neurospora crassa with 22 samples.

Results

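The small (40S) subunit of the cytoplasmic ribosome binds mRNA, scans for the start codon and decodes the message, and each of its proteins is encoded by its own mRNA in the fungus Neurospora crassa. The proteins are needed in equal numbers, and in fungi their genes are commonly turned up and down together with growth. The data describe 31 mRNAs with product names of such proteins in RNA recovered with GUL-1. GUL-1 is the N. crassa homolog of Ssd1, a yeast RNA-binding protein known for holding back translation of mRNAs for cell wall proteins. The members are the genes whose product name holds the words 40S ribosomal protein, and not mito, in the study's list of proteins identified by mass spectrometry after GFP pull-down. All 31 were found among the 10592 features of the count table, and all 31 were among the 7114 features that passed the filter on low counts. The names run from S0 to S30, and S8 and S13 each name 2 genes. The list is therefore limited to proteins of that name seen in that experiment, and the text of the list was shortened where it was read. Whether each is a protein of the cytoplasmic subunit was not tested beyond its name.

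The 22 libraries fall into 8 groups, of RNA recovered on GFP-binding beads (pull-downs) and of total RNA of the same kinds of culture (inputs). The GUL-1-GFP strain carries Pccg1-gul-1-sgfp at his-3, so that tagged GUL-1 is made from the promoter of ccg-1, a clock-controlled gene. Its own gul-1 is deleted with the hph marker (hph::deltagul-1), and its mating type is A. The wild-type carries no tag, and its pull-downs show what the GFP-binding beads retain by themselves. Cultures received 1e-05 M Nikkomycin Z, a competitive inhibitor of chitin synthases, for 1 h, or no agent (standard medium). The groups were GUL-1-GFP pull-downs with Nikkomycin Z (3 libraries) and in standard medium (3), GUL-1-GFP inputs with Nikkomycin Z (2) and in standard medium (2), wild-type pull-downs with Nikkomycin Z (3) and in standard medium (3), and wild-type inputs with Nikkomycin Z (3) and in standard medium (3). The labels do not say that libraries of a group came from separate cultures, so that p-values measure the spread between these libraries, which may be technical. For the GUL-1-GFP inputs of standard medium the titles name a pull-down, and the fraction label, total RNA, was followed.

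Counts per library ranged from 259583 to 28372176, of which between 59 and 5200733 fell on protein-coding genes. The wild-type input replicate 3 of standard medium held the 59, with no count on any of the 31 mRNAs. The 4 GUL-1-GFP inputs held between 30660 and 48884 protein-coding counts and between 20 and 24 of the 31 mRNAs, so that each comparison with these inputs rests on few counts. The tagged gene, gul-1 (NCU01197), had 7771 to 46184 counts in pull-downs of the GUL-1-GFP strain and 33 to 922 in those of the wild-type, at unlike depths. Its inputs differed in the same direction, with 102 to 594 counts in GUL-1-GFP and 0 to 47 in the wild-type. Its pull-down over input did not differ between the strains at an adjusted p under 0.05 in edgeR's test, described below (adjusted p = 0.290 with Nikkomycin Z and 0.858 in standard medium). Of 3 conidial marker genes (con-6, con-10 and eas), the summed level was between 2.36 and 9.81 per 1000000 protein-coding counts in GUL-1-GFP pull-downs with Nikkomycin Z, where con-6 and con-10 were at 0, and between 1008 and 1694 in wild-type pull-downs with Nikkomycin Z. In standard medium it was between 3.33 and 530.7 in GUL-1-GFP pull-downs, against 20.4 to 4462 in wild-type pull-downs, where con-6 was at 0. The part of these markers in the results below was not tested, and in bulk RNA fewer cells of a type and less RNA per cell cannot be told apart.

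In the pull-downs of GUL-1-GFP, 40S ribosomal protein mRNAs made up a smaller share of the mRNA than in the wild-type. They held 0.243, 0.317 and 0.298% of the protein-coding counts in GUL-1-GFP pull-downs with Nikkomycin Z, against 1.27, 1.23 and 1.34% in wild-type pull-downs with Nikkomycin Z. In standard medium the shares were 0.310, 0.371 and 0.311% in GUL-1-GFP pull-downs and 0.711, 1.07 and 0.980% in wild-type pull-downs. No GUL-1-GFP pull-down reached the lowest wild-type pull-down in either medium. The shares in GUL-1-GFP inputs were 0.711 and 0.958% with Nikkomycin Z and 0.926 and 0.855% in standard medium, above every GUL-1-GFP pull-down. In wild-type inputs they were 1.34, 1.22 and 1.17% with Nikkomycin Z and 0.784, 1.15 and 0% in standard medium, the last from the library with 59 protein-coding counts. Beside this, the 10 most abundant protein-coding features held between 33.2 and 53.0% of the protein-coding counts in GUL-1-GFP pull-downs, against 6.19 to 9.96% in wild-type pull-downs. Less of the total was thus left to other mRNAs. Whether this accounts for the smaller share of 40S ribosomal protein mRNAs was not tested. The mRNAs of the large (60S) subunit, 44 of the same list, held between 0.240 and 0.400% in GUL-1-GFP pull-downs, against 0.675 to 1.45% in wild-type pull-downs.

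**Figure D1:**
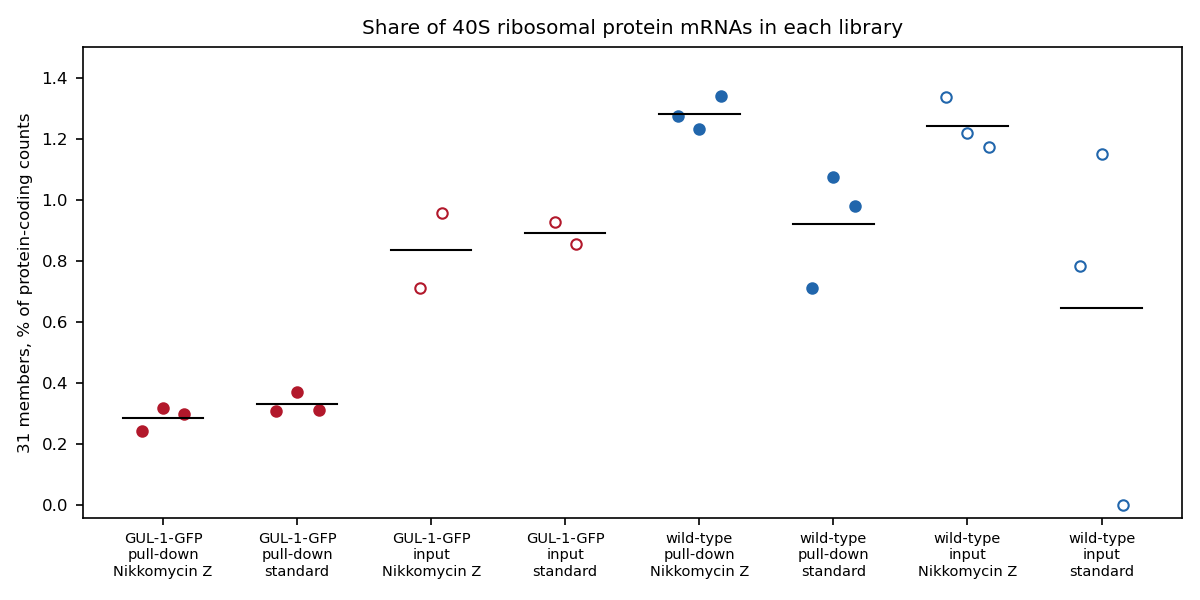
Share of the 31 mRNAs among protein-coding counts (%, y axis) in each library of the 8 groups (x axis); points are libraries, filled for pull-downs and open for inputs, and lines are group means. GUL-1-GFP pull-downs lay between 0.243 and 0.371% and wild-type pull-downs between 0.711 and 1.34%.

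Because of this change in composition, levels below are CPM (counts per 1000000) after TMM scaling, which assumes that most mRNAs do not differ. The 31 mRNAs were read against protein-coding mRNAs of like abundance. This set is the 1113 other protein-coding features whose average log2 CPM over all 22 libraries lay between the 10th and 90th percentiles of the members, 1.33 and 2.88. Differences were tested by the quasi-likelihood method of edgeR in one fit of the 8 groups, with p-values adjusted over the 7114 features (Benjamini-Hochberg), and called at an adjusted p under 0.05. A log2FC is the difference in log2 level, and SE is its standard error. After this scaling, pull-down over input of GUL-1-GFP still had a median log2FC over all features tested of 3.69 with Nikkomycin Z and 3.32 in standard medium. The difference of the strains in pull-down over input had a median of 2.91 with Nikkomycin Z. Single log2FC of these comparisons carry that shift.

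With Nikkomycin Z, 20 of the 31 mRNAs had a log2FC below 0 in GUL-1-GFP pull-downs relative to wild-type ones, and S1 stood apart in the other direction. A log2FC above 0 was found for 11 of the 31, beside 3318 of the 7114 features tested and 712 of the 1113 of like abundance. In that comparison 1 of the 31 was called higher (7.11% of all features tested were) and 3 were called lower (5.31% of all features tested were). The median log2FC was -0.68 over the 31 mRNAs, -0.13 over all features tested and 0.45 over mRNAs of like abundance, and 27 of the 31 lay below the last. Of the mRNAs of like abundance 17.5% were called higher and 6.65% lower. Their choice used averages that include the GUL-1-GFP pull-downs compared here, which can raise their median. Chosen on wild-type pull-downs alone, 624 features had a median of 0.27, with 14.1% called higher and 7.21% lower. Chosen from the lowest to the highest member, 3041 features had a median of 0.21. In standard medium none of the 31 was called in edgeR's test, beside 2.59% of all features tested, and DESeq2 called 0 of the 31. In edgeR's test 2 of the 31 had an unadjusted p under 0.05, beside 527 of the 7114 features tested and 153 of the 1113 of like abundance. There the median log2FC was -0.17 over the 31 mRNAs, -0.07 over all features tested and 0.10 over mRNAs of like abundance. The median of the members less that of like abundance was thus -1.13 with Nikkomycin Z and -0.27 in standard medium. Under 32 alternative settings it lay between -1.24 and -0.89 and between -0.34 and -0.06, while the direction of single mRNAs depended on the scaling. With protein-coding counts as library sizes and no further scaling, an alternative chosen after seeing the data, 29 of the 31 were lower and none higher with Nikkomycin Z, and 20 were lower in standard medium. With Nikkomycin Z, fitted on the 6 libraries of that comparison alone, 1 was higher and 16 were lower. The shares of all features called under these settings are not given here, so that these counts are not read as particular to the 31. None was called without GUL-1-GFP pull-down replicate 1 or 3 or wild-type pull-down replicate 3 with Nikkomycin Z, and 8 were called without wild-type input replicate 1 or 2 of standard medium. These counts too lack the share of all features.

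**Figure D2:**
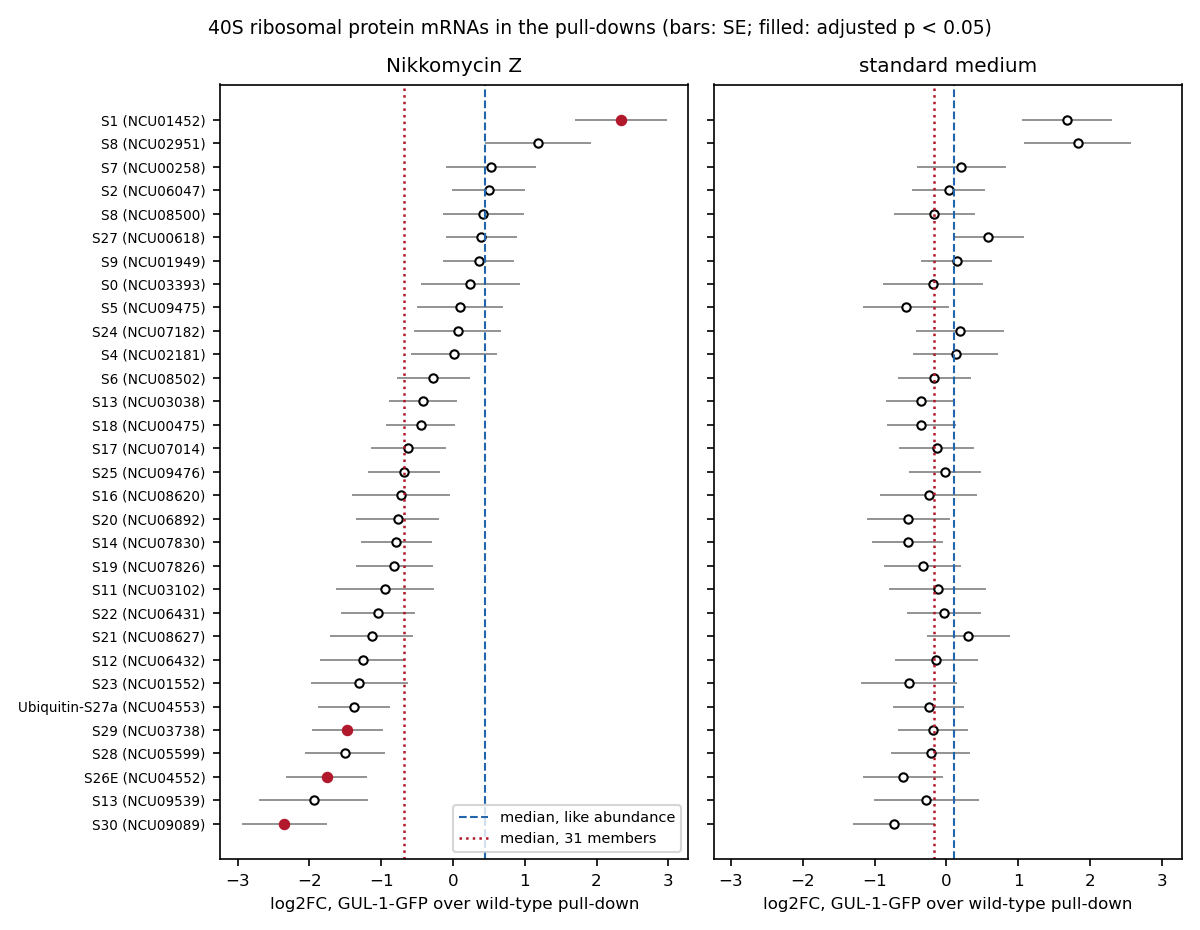
log2FC of GUL-1-GFP over wild-type pull-down (x axis) for each of the 31 mRNAs (y axis), with Nikkomycin Z on the left and in standard medium on the right; bars are SE, filled points have an adjusted p under 0.05. The dashed line is the median of mRNAs of like abundance (0.45 and 0.10) and the dotted line that of the 31 mRNAs (-0.68 and -0.17).

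The inputs with Nikkomycin Z differed between the strains in the same direction as the pull-downs. The median log2 CPM of the 31 mRNAs less that of mRNAs of like abundance was -0.12, -0.20 and -0.19 in GUL-1-GFP pull-downs with Nikkomycin Z, against 0.96, 1.04 and 1.07 in wild-type pull-downs with Nikkomycin Z. In standard medium it was 0.16, 0.27 and -0.27 in GUL-1-GFP pull-downs and 0, 0.33 and 0.40 in wild-type pull-downs. The strains did not overlap with Nikkomycin Z and overlapped in standard medium, where all lay lower than the wild-type pull-downs with Nikkomycin Z. In inputs with Nikkomycin Z it was -0.19 and 0 in GUL-1-GFP, against 1.09, 0.98 and 0.81 in the wild-type, without overlap, and the wild-type inputs with Nikkomycin Z were thus about as high as the wild-type pull-downs with Nikkomycin Z. In inputs of standard medium it was 0.25 and 0 in GUL-1-GFP and 0.28, 0.25 and 0 in the wild-type, the last from the library without a count on the 31 mRNAs. The values of GUL-1-GFP inputs rest on few counts. A common scaling factor of a library largely cancels in this difference. A prior count was added before taking logs, however, so that the difference is compressed where counts are low. For single mRNAs with Nikkomycin Z, the 3 GUL-1-GFP pull-downs all lay below the 3 wild-type pull-downs for 20 of the 31 (27% of all features tested, 25.8% of those of like abundance) and all above them for 6 (25.7% of all features tested, 47.7% of those of like abundance). In standard medium they lay below for 2 (5.54% of all features tested) and above for 1 (9.42% of all features tested).

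**Figure D3:**
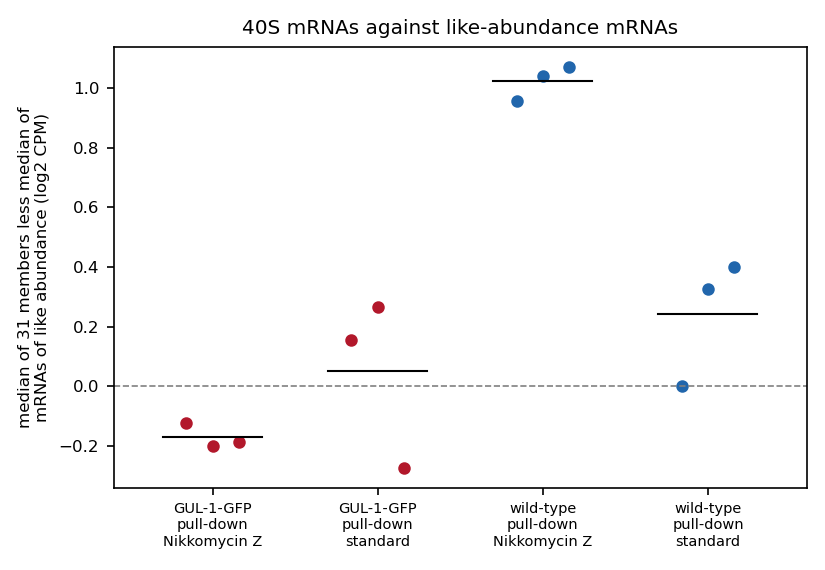
Median log2 CPM of the 31 mRNAs less the median of mRNAs of like abundance (y axis, log2) in each pull-down library of the 4 groups (x axis); points are libraries and lines are group means. Wild-type pull-downs with Nikkomycin Z lay between 0.96 and 1.07, GUL-1-GFP pull-downs with Nikkomycin Z between -0.20 and -0.12.

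S1 (NCU01452), a protein of the subunit's platform near the mRNA exit, had 65.7, 37.8 and 59.6 CPM in GUL-1-GFP pull-downs with Nikkomycin Z, against 11.1, 9.83 and 11.2 CPM in wild-type pull-downs with Nikkomycin Z. In standard medium it had 10.4, 43.8 and 41.2 CPM in GUL-1-GFP pull-downs and 4.31, 14.6 and 10.7 CPM in wild-type pull-downs. The strains did not overlap with Nikkomycin Z, and in standard medium GUL-1-GFP replicate 1 lay within the range of the wild-type. The log2FC was 2.34 with Nikkomycin Z (SE 0.64, adjusted p = 0.0172) and 1.68 in standard medium (SE 0.63, adjusted p = 0.277). S1 was the only one of the 31 called higher in GUL-1-GFP pull-downs, with Nikkomycin Z, and the call was lost without any 1 of 5 libraries, pull-down replicates 1 and 3 of GUL-1-GFP and all 3 of the wild-type with Nikkomycin Z (adjusted p up to 0.075, log2FC between 2.23 and 2.55 over all left-out libraries). On protein-coding library sizes its log2FC was 0.30, with an adjusted p of 0.629. As a share of protein-coding counts it was 0.0760, 0.0683 and 0.0811% in GUL-1-GFP pull-downs with Nikkomycin Z and 0.0644, 0.0566 and 0.0624% in wild-type pull-downs with Nikkomycin Z, without overlap. The other 30 together held between 0.167 and 0.249% in GUL-1-GFP pull-downs with Nikkomycin Z and between 1.18 and 1.28% in wild-type pull-downs with Nikkomycin Z.

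The inputs held little S1 mRNA in GUL-1-GFP, 23 and 18 counts with Nikkomycin Z and 6 and 0 counts in standard medium, against 172, 181 and 91 counts in wild-type inputs with Nikkomycin Z and 67, 26 and 0 counts in those of standard medium. The pull-down exceeded the input in GUL-1-GFP by a log2FC of 3.49 with Nikkomycin Z (SE 0.82, adjusted p = 0.00407) and of 5.24 in standard medium (SE 0.97, adjusted p = 0.000764). In the wild-type the log2FC was 0.41 with Nikkomycin Z and 1.04 in standard medium, and neither was called. The difference between the strains, tested as the interaction of strain and fraction, was 3.07 with Nikkomycin Z (adjusted p = 0.0479) and 4.20 in standard medium (adjusted p = 0.0489). S1 was the only one of the 31 called in both of these interactions, and each call was lost in 15 of the 22 fits that left out a library (adjusted p up to 0.186 with Nikkomycin Z and 0.188 in standard medium). Both were also lost with protein-coding counts as library sizes (log2FC 0.16 with Nikkomycin Z and 2.43 in standard medium), that with Nikkomycin Z with protein-coding features only (adjusted p = 0.0624), and that of standard medium with the libraries of the comparison alone (adjusted p = 0.274).

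S30 (NCU09089), which in animals is made as a fusion with a ubiquitin-like protein, was at the other end. It had 2.34, 2.50 and 2.71 CPM in GUL-1-GFP pull-downs with Nikkomycin Z, against 12.3, 10.8 and 15.4 CPM in wild-type pull-downs with Nikkomycin Z. In standard medium it had 3.20, 2.55 and 1.96 CPM in GUL-1-GFP pull-downs and 6.33, 2.71 and 3.82 CPM in wild-type pull-downs. With Nikkomycin Z every GUL-1-GFP pull-down was below every wild-type one, and in standard medium the strains overlapped. The log2FC was -2.35 with Nikkomycin Z (SE 0.60, adjusted p = 0.0106) and -0.73 in standard medium (SE 0.58, adjusted p = 1). Leaving out any 1 of 4 libraries, the 3 GUL-1-GFP pull-downs or wild-type pull-down replicate 3 with Nikkomycin Z, ended the call, at an adjusted p of up to 0.0987, as did total counts as library sizes (log2FC -1.52, adjusted p = 0.384).

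S29 (NCU03738), a zinc-binding protein of the subunit's head, had 3.11, 3.90 and 4.03 CPM in GUL-1-GFP pull-downs with Nikkomycin Z, against 8.16, 9.48 and 12.9 CPM in wild-type pull-downs with Nikkomycin Z. In standard medium it had 4.75, 2.21 and 2.61 CPM in GUL-1-GFP pull-downs and 5.43, 2.87 and 2.74 CPM in wild-type pull-downs. The strains overlapped in standard medium and not with Nikkomycin Z. The GUL-1-GFP inputs held 33 and 51 counts with Nikkomycin Z and 27 and 45 counts in standard medium, and the wild-type inputs 209, 335 and 169 counts with Nikkomycin Z and 102, 49 and 0 counts in standard medium. Its log2FC with Nikkomycin Z, -1.47 (SE 0.50), passed the threshold narrowly, at an adjusted p of 0.04996, and the call was lost in 13 of the 22 fits that left out a library, at an adjusted p of up to 0.274. It was also lost with TMMwsp scaling (adjusted p = 0.0568), with no filter on low counts (0.0900) and with total counts as library sizes (log2FC -0.63, adjusted p = 0.787).

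S26E (NCU04552, crp-5), a protein beside the mRNA exit channel, had 2.59, 2.03 and 2.97 CPM in GUL-1-GFP pull-downs with Nikkomycin Z, against 8.91, 7.62 and 9.29 CPM in wild-type pull-downs with Nikkomycin Z. In standard medium it had 2.87, 3.42 and 2.34 CPM in GUL-1-GFP pull-downs and 4.31, 3.86 and 4.95 CPM in wild-type pull-downs. The strains did not overlap in either medium. The GUL-1-GFP inputs held no count with Nikkomycin Z and 0 and 9 counts in standard medium, and the wild-type inputs 186, 145 and 92 counts with Nikkomycin Z and 51, 5 and 0 counts in standard medium. The log2FC was -1.76 with Nikkomycin Z (SE 0.57, adjusted p = 0.0415) and -0.61 in standard medium (SE 0.56, adjusted p = 1), and the call was lost in 11 of the 22 fits that left out a library, with TMMwsp scaling (adjusted p = 0.0521) and with total counts as library sizes (log2FC -0.87, adjusted p = 0.681). Its neighbour in the genome, the gene of the ubiquitin-S27a fusion (NCU04553, ubi::crp-6), had a log2FC of -1.37 with Nikkomycin Z and -0.25 in standard medium, neither called.

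**Figure D4:**
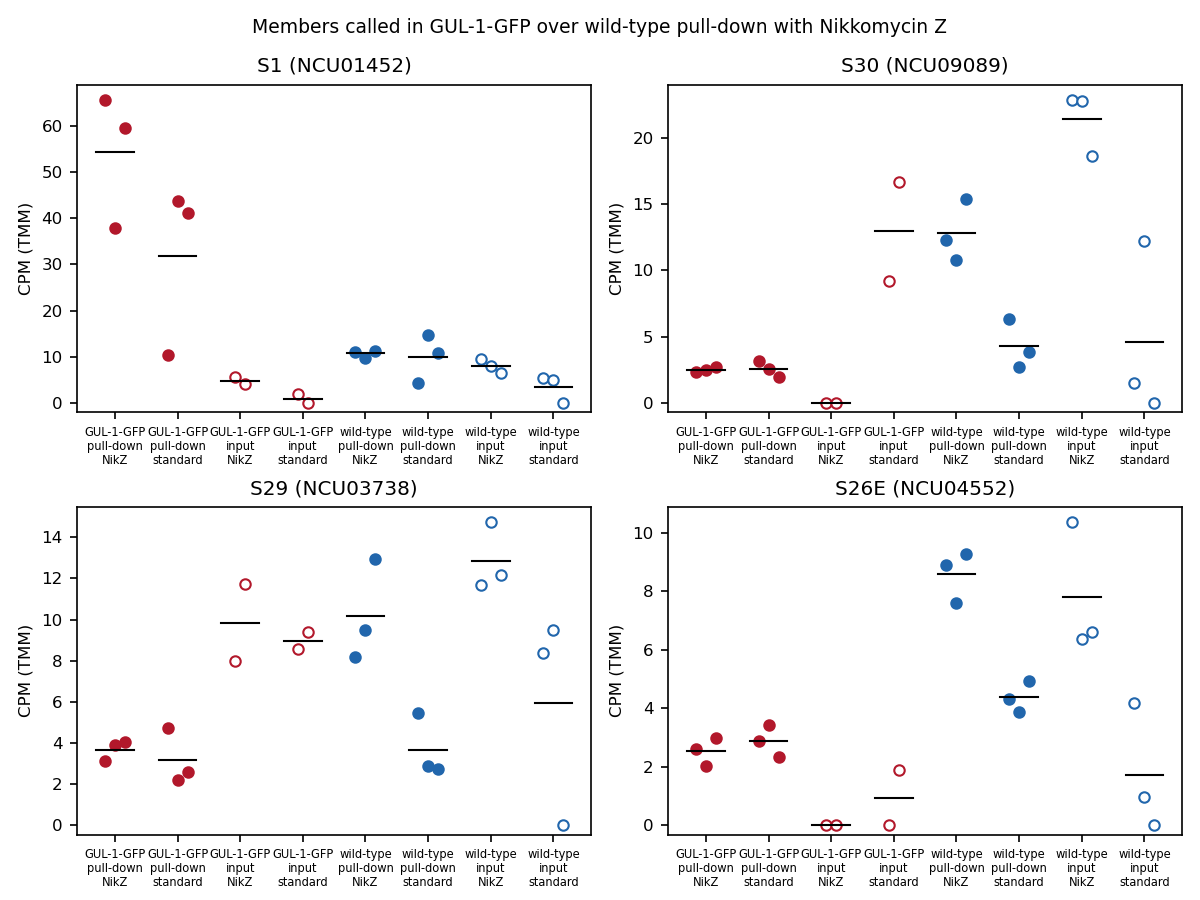
CPM after TMM scaling (y axis) of S1, S30, S29 and S26E in each library of the 8 groups (x axis; NikZ, Nikkomycin Z); points are libraries, filled for pull-downs and open for inputs, and lines are group means. S1 reached 65.7 CPM in GUL-1-GFP pull-downs with Nikkomycin Z, while S30, S29 and S26E were lower there than in every wild-type pull-down with Nikkomycin Z.

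Proteins of the small subunit were first numbered by their migration in gels, so that higher numbers generally mark smaller proteins, and the mRNAs followed this order in the pull-downs with Nikkomycin Z. Across the 31 mRNAs, all measured in the same libraries, the number in the name and the log2FC of GUL-1-GFP over wild-type pull-down had a Spearman rho of -0.69 (Pearson r = -0.68) with Nikkomycin Z and of -0.29 (Pearson r = -0.33) in standard medium. Without S1 the rho was -0.66 and -0.23. The 10 mRNAs of S0 to S9 had a median log2FC of 0.39 with Nikkomycin Z, with 9 of the 10 above 0. The 21 mRNAs of S11 to S30 had a median of -0.94, with 2 of the 21 above 0, namely S27 (NCU00618) and S24 (NCU07182). In standard medium the medians were 0.08 and -0.25. The split by name was chosen after the values were seen and was not tested, and mRNA length was not used here.

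**Figure D5:**
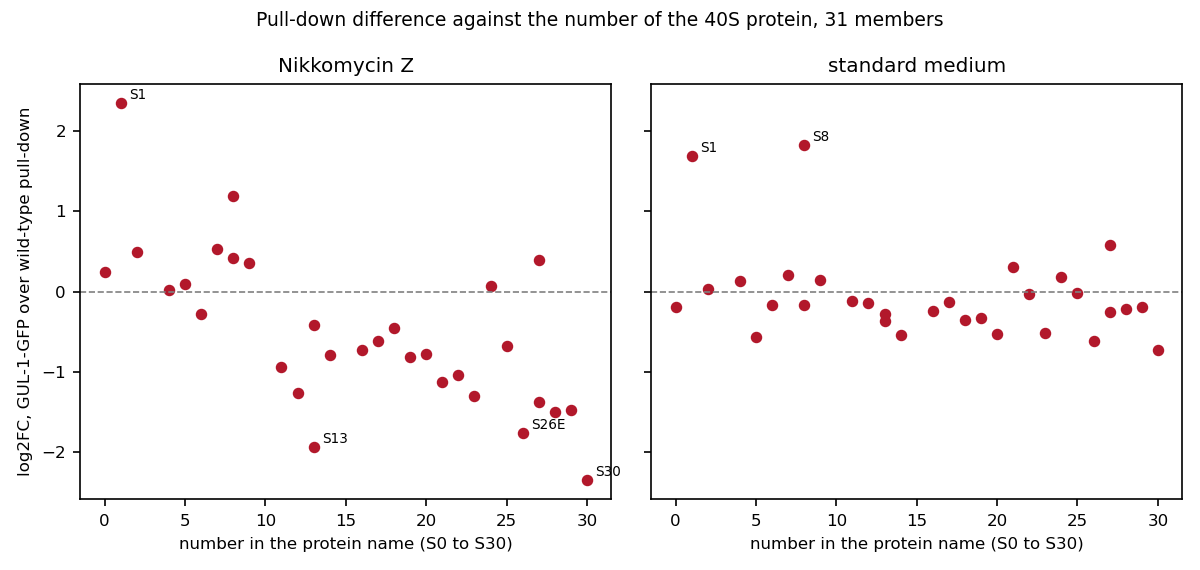
log2FC of GUL-1-GFP over wild-type pull-down (y axis) against the number in the protein's name (x axis) for the 31 mRNAs, with Nikkomycin Z on the left and in standard medium on the right; each point is an mRNA. With Nikkomycin Z the points descend from S1 at 2.34 to S30 at -2.35 (Spearman rho -0.69), and in standard medium the rho was -0.29.

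The same order appeared, with the opposite sign, between wild-type pull-downs with Nikkomycin Z and in standard medium, a comparison that shares the wild-type pull-downs with the one above. The rho between number and log2FC was 0.78 (Pearson r = 0.79), the median was -0.02 over S0 to S9 and 0.71 over S11 to S30, and all 21 mRNAs of S11 to S30 were above 0. None of the 31 was called in edgeR's test (0.0422% of all features tested were), and DESeq2 called 0 of the 31. In edgeR's test 5 of the 31 had an unadjusted p under 0.05, beside 822 of the 7114 features tested and 240 of the 1113 of like abundance. The median log2FC was 0.61 over the 31 mRNAs, 0 over all features tested and -0.01 over mRNAs of like abundance. S30 had the highest log2FC, 1.59 (SE 0.58). The lowest belonged to S5 (NCU09475), which lines the mRNA exit, at -0.27 (SE 0.60), with 6.40, 5.76 and 6.87 CPM in wild-type pull-downs with Nikkomycin Z and 3.70, 11.9 and 7.23 CPM in those of standard medium, which overlapped. GUL-1-GFP pull-downs held 6.17, 6.95 and 7.25 CPM of S5 with Nikkomycin Z and 2.44, 6.91 and 6.19 CPM in standard medium, and their inputs held 7 and 47 counts with Nikkomycin Z and 18 and 10 counts in standard medium.

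GUL-1-GFP pull-downs with Nikkomycin Z were also set against those of standard medium. None was called in edgeR's test, as none of all features tested was (0%), and DESeq2 called 0 of the 31. In edgeR's test none of the 31 had an unadjusted p under 0.05, beside 301 of the 7114 features tested and 41 of the 1113 of like abundance. The median log2FC was 0.13 over the 31 mRNAs, -0.09 over all features tested and 0.21 over mRNAs of like abundance. S1 was the highest, at 0.78 (SE 0.61), and one of the S13 mRNAs (NCU09539) the lowest, at -0.95 (SE 0.75). The rho with the number in the name was -0.33.

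In wild-type inputs the median log2FC of Nikkomycin Z over standard medium was 1.24 over the 31 mRNAs, against 0.55 over all features tested and 0.45 over mRNAs of like abundance. None passed edgeR's adjusted threshold (0.998% of all features tested did), and DESeq2 called 4 of the 31, its share of all features not given here. In edgeR's test 17 of the 31 had an unadjusted p under 0.05, beside 1223 of the 7114 features tested and 236 of the 1113 of like abundance. The largest log2FC, 3.41 (SE 1.15), was that of S7 (NCU00258, crp-15), at 20, 24 and 20 counts with Nikkomycin Z and 2, 0 and 0 counts in standard medium. The smallest, -0.47 (SE 0.64), was that of S5, with 88, 134 and 98 counts with Nikkomycin Z and 70, 68 and 0 counts in standard medium. Only standard-medium replicates 1 and 2 bear on this, since replicate 3 held no count on the 31 mRNAs. Without standard-medium input replicate 1, 11 of the 31 were called, and without replicate 3 none was, again without the share of all features.

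Relative to their own inputs, a minority of the 40S ribosomal protein mRNAs were called higher in GUL-1-GFP pull-downs, though most had a log2FC above 0. With Nikkomycin Z 26 of the 31 had, beside 6015 of the 7114 features tested and 921 of the 1113 of like abundance. In standard medium 27 had, beside 5810 of all features tested and 916 of those of like abundance. With Nikkomycin Z 13 of the 31 were called higher (18.8% of all features tested were, and 29.6% of those of like abundance) and none lower. In standard medium 7 were called higher (18.2% of all features tested, 29.5% of those of like abundance) and 1 lower (0.45% of all features tested). The median log2FC over the 31 mRNAs was 1.64 with Nikkomycin Z and 1.24 in standard medium, against 3.69 and 3.32 over all features tested and 1.37 and 1.24 over mRNAs of like abundance. With total counts as library sizes 21 were higher with Nikkomycin Z and 28 in standard medium. With protein-coding counts as library sizes 3 were higher and 11 lower with Nikkomycin Z, and 2 higher and 11 lower in standard medium. The direction thus depended on the scaling, and these counts lack the share of all features beside them. Fitted on the libraries of the comparison alone, none of the 31 was called in standard medium, S1, S4 and S0 included. Leaving out a library gave as few as 8 calls with Nikkomycin Z (without GUL-1-GFP input replicate 3) and from 4 (without GUL-1-GFP pull-down replicate 3) to 13 (without wild-type input replicate 1) in standard medium. GUL-1-bound here means a log2FC over 2, an adjusted p under 0.05 and no enrichment in wild-type pull-downs. By this rule 13 of the 31 were bound with Nikkomycin Z (18.5% of all features tested). In standard medium 7 were (17.7% of all features tested), and 5 were bound in both media. With Nikkomycin Z the last condition could exclude nothing, since no feature was called in wild-type pull-down over input (0%). Of those meeting the rule there, S30 and S26E were called lower between the strains in pull-downs (log2FC -2.35 and -1.76). S11, S12, S20, S17, S19 and S6 also lay below every wild-type pull-down, S7, S1 and S8 (NCU08500) above, while S27 and S24 overlapped.

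Several of these calls rest on inputs without a count. With Nikkomycin Z 7 of the 31 had no count in either GUL-1-GFP input, namely S7, S26E, S12, S20, S17, S6 and S30. Their fitted log2FC depends on the prior count. On TMM library sizes, against 3 counts in each input, they were at least between 3.56-fold (S30) and 10.6-fold (S6) higher in the pull-downs. In standard medium S17 and S24 had no input count and were at least 3.41-fold and 4.54-fold higher on the same scaling. These floors cover counting error only, hold for TMM library sizes only, and the deposited counts are estimates. No floor was computed on protein-coding counts as library sizes, where the calls of S26E, S12, S20 and S30 with Nikkomycin Z were lost. With these mRNAs at their bounds the medians stayed at 1.64 and 1.24.

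S6 (NCU08502), which is phosphorylated downstream of the TOR kinase, had 7.36, 7.12 and 7.97 CPM in GUL-1-GFP pull-downs with Nikkomycin Z and 0 and 0 counts in the inputs. In standard medium it had 4.25, 5.57 and 6.59 CPM in GUL-1-GFP pull-downs and 1 and 8 counts in the inputs. Wild-type pull-downs held 9.42, 9.54 and 8.19 CPM with Nikkomycin Z and 2.24, 8.56 and 7.58 CPM in standard medium. With Nikkomycin Z every GUL-1-GFP pull-down was below every wild-type one, and in standard medium the strains overlapped. The log2FC between the strains was -0.27 with Nikkomycin Z and -0.17 in standard medium, neither called. In wild-type inputs with Nikkomycin Z it had 175, 155 and 69 counts, and in standard medium 17, 6 and 0 counts.

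S17 (NCU07014, crp-3) had 2.63, 2.92 and 2.98 CPM in GUL-1-GFP pull-downs with Nikkomycin Z, against 5.39, 3.02 and 4.68 CPM in wild-type pull-downs with Nikkomycin Z. In standard medium it had 2.73, 3.25 and 2.08 CPM in GUL-1-GFP pull-downs and 2.52, 3.06 and 3.20 CPM in wild-type pull-downs. The strains did not overlap with Nikkomycin Z, where GUL-1-GFP was the lower, and overlapped in standard medium. S17 was at 0 in all 4 GUL-1-GFP inputs. The wild-type inputs held 78, 69 and 39 counts with Nikkomycin Z and 9, 0 and 0 counts in standard medium.

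S20 (NCU06892), which lies in the head of the subunit, had 3.64, 2.88 and 3.66 CPM in GUL-1-GFP pull-downs with Nikkomycin Z, against 7.05, 4.25 and 6.10 CPM in wild-type pull-downs with Nikkomycin Z. In standard medium it had 2.80, 1.68 and 3.21 CPM in GUL-1-GFP pull-downs and 3.08, 4.66 and 3.47 CPM in wild-type pull-downs. S20 was thus lower in every GUL-1-GFP pull-down than in every wild-type one with Nikkomycin Z, and the strains overlapped in standard medium. The GUL-1-GFP inputs held no count with Nikkomycin Z and 0 and 3 counts in standard medium. The wild-type inputs held 102, 99 and 55 counts with Nikkomycin Z and 23, 0 and 0 counts in standard medium.

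S12 (NCU06432), a neighbour in the genome of the S22 gene (NCU06431), had 3.27, 5.38 and 3.19 CPM in GUL-1-GFP pull-downs with Nikkomycin Z, against 10.2, 8.26 and 9.82 CPM in wild-type pull-downs with Nikkomycin Z. In standard medium it had 4.38, 4.76 and 4.11 CPM in GUL-1-GFP pull-downs and 4.59, 5.05 and 4.92 CPM in wild-type pull-downs. The strains did not overlap with Nikkomycin Z and overlapped in standard medium. The GUL-1-GFP inputs held no S12 count with Nikkomycin Z and 7 and 4 counts in standard medium. The wild-type inputs held 144, 141 and 104 counts with Nikkomycin Z and 39, 0 and 0 counts in standard medium.

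S7 (NCU00258) had 4.74, 3.39 and 4.81 CPM in GUL-1-GFP pull-downs with Nikkomycin Z, against 2.80, 3.26 and 2.92 CPM in wild-type pull-downs with Nikkomycin Z, without overlap. In standard medium it had 1.44, 5.05 and 4.27 CPM in GUL-1-GFP pull-downs and 0.616, 4.22 and 4.29 CPM in wild-type pull-downs, with replicate 1 low in both strains. The GUL-1-GFP inputs held no count with Nikkomycin Z and 0 and 6 counts in standard medium. S7 was the only one of the 31 called in wild-type pull-down over input, in standard medium, where 1 was higher (0.45% of all features tested) and the median log2FC was 0.94 over the 31 mRNAs, 0.61 over all features tested and 0.51 over mRNAs of like abundance. Its log2FC there was 4.76 (SE 1.11, adjusted p = 0.0485), and the call was lost in 16 of the 22 fits that left out a library, at an adjusted p of up to 0.199, and with the libraries of the comparison alone (adjusted p = 0.125).

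With Nikkomycin Z wild-type pull-downs were set against their inputs, as a measure of what the beads retain. None was called in edgeR's test, as none of all features tested was (0%), and DESeq2 called 0 of the 31. In edgeR's test none of the 31 had an unadjusted p under 0.05, beside 247 of the 7114 features tested and 13 of the 1113 of like abundance. The median log2FC was 0.09 over the 31 mRNAs, 0.08 over all features tested and 0.10 over mRNAs of like abundance. The log2FC ran from -0.97 for an S13 mRNA (NCU09539) to 1.32 for S7. Again the mRNAs with high numbers were the lower ones, with a median of 0.30 over S0 to S9 and of -0.15 over S11 to S30 (rho = -0.50).

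The interaction of strain and fraction, which sets pull-down over input of GUL-1-GFP against that of the wild-type, called 8 of the 31 higher with Nikkomycin Z (9.17% of all features tested) and 1 in standard medium (2.16% of all features tested). Those called with Nikkomycin Z were S1 and the 7 mRNAs with no count in the GUL-1-GFP inputs. Without GUL-1-GFP input replicate 2 or 3 with Nikkomycin Z, which leaves 1 library assumed to vary like the other groups, 2 and 1 of the 31 were called. The medians over the 31 mRNAs, all features tested and mRNAs of like abundance were 1.58, 2.91 and 1.23 with Nikkomycin Z and 0.40, 0.87 and 0.67 in standard medium. The highest and lowest log2FC were 10.35 for S6 and -1.09 for S29 with Nikkomycin Z, and 7.39 for S24 and -2.44 for S7 in standard medium. S24 (NCU07182) had 2.03, 4.47 and 4.23 CPM in GUL-1-GFP pull-downs of standard medium, against 1.91, 4.30 and 3.16 CPM in wild-type pull-downs of standard medium, and these overlapped. With Nikkomycin Z it had 4.42, 3.43 and 5.14 CPM in GUL-1-GFP pull-downs and 3.31, 6.22 and 2.95 CPM in wild-type pull-downs. It was listed at 0 in both GUL-1-GFP inputs of standard medium, with 0 and 5 counts in those with Nikkomycin Z, and at 33, 56 and 35 counts in wild-type inputs with Nikkomycin Z and 14, 0 and 0 counts in those of standard medium.

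S30 was also the only one of the 31, and of all features tested (0.0141%), called in the interaction of Nikkomycin Z and fraction in GUL-1-GFP. It had no count in the 2 GUL-1-GFP inputs with Nikkomycin Z, against 29 and 80 counts in those of standard medium. In wild-type inputs it had 410, 517 and 259 counts with Nikkomycin Z and 18, 63 and 0 counts in standard medium. Apart from the wild-type library without any member count, the GUL-1-GFP inputs with Nikkomycin Z were the only inputs without S30. Its log2FC over input was 9.11 with Nikkomycin Z (adjusted p = 0.00369), where the inputs were at 0, and -2.34 in standard medium (adjusted p = 0.0142), the only one of the 31 called lower there. With total counts as library sizes the value of standard medium turned to 0.53 (adjusted p = 0.623). The lowest value in this interaction was -6.72, for S24, whose inputs were at 0 in standard medium. For S30 the difference between the media, 11.44 in the fit, had an adjusted p of 0.0498. With replicate number as a block the adjusted p was 0.0518, over the threshold. The call was lost in 16 of the 22 fits that left out a library, with an adjusted p of up to 0.201, and with total counts as library sizes (adjusted p = 0.338), protein-coding features only (0.0544) or the libraries of the comparison alone (0.176), and the pull-downs differed between the media by less than their spread (2.52 ± 0.182 CPM with Nikkomycin Z and 2.57 ± 0.618 CPM in standard medium, SD, n = 3 each, adjusted p = 1 in edgeR's test).

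S8 and S13 are each named for 2 mRNAs. S8 of NCU08500 had 8.08, 8.90 and 10.4 CPM in GUL-1-GFP pull-downs with Nikkomycin Z, against 6.90, 7.85 and 5.74 CPM in wild-type pull-downs with Nikkomycin Z, and 4.24, 7.95 and 9.50 CPM in GUL-1-GFP pull-downs against 1.68, 13.5 and 9.14 CPM in wild-type pull-downs of standard medium. The second S8, NCU02951, had 3.29, 0.763 and 2.71 CPM in GUL-1-GFP pull-downs with Nikkomycin Z, against 1.44, 1.10 and 0.464 CPM in wild-type pull-downs with Nikkomycin Z, and 3.96, 3.08 and 1.42 CPM in GUL-1-GFP pull-downs against 0.504, 0.836 and 0.990 CPM in wild-type pull-downs of standard medium. In standard medium NCU02951 was higher in every GUL-1-GFP pull-down than in every wild-type one and had the largest log2FC of the 31, 1.83 (SE 0.74), at an adjusted p of 0.383. NCU08500 had a log2FC of -0.17 there (SE 0.56, adjusted p = 1).

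Inputs of GUL-1-GFP held 4 and 5 counts of NCU08500 with Nikkomycin Z and 5 and 13 counts in standard medium, whereas NCU02951 had 0 and 7 counts with Nikkomycin Z and 6 and 0 counts in standard medium. In wild-type inputs NCU08500 had 131, 173 and 61 counts with Nikkomycin Z and 32, 32 and 0 counts in standard medium, and NCU02951 had 28, 28 and 15 counts with Nikkomycin Z and 6, 5 and 0 counts in standard medium. Relative to GUL-1-GFP inputs with Nikkomycin Z, NCU08500 was called higher (log2FC 3.10, SE 0.81, adjusted p = 0.00913, lost on protein-coding library sizes at 0.35), and NCU02951 was not (log2FC 1.48, adjusted p = 0.294).

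S13 of NCU03038 had 5.15, 4.70 and 4.96 CPM in GUL-1-GFP pull-downs with Nikkomycin Z, against 5.93, 6.69 and 7.23 CPM in wild-type pull-downs with Nikkomycin Z, and 2.38, 3.42 and 4.42 CPM in GUL-1-GFP pull-downs against 2.63, 5.85 and 4.61 CPM in wild-type pull-downs of standard medium. The second S13, NCU09539, had 0.233, 0.593 and 0.312 CPM in GUL-1-GFP pull-downs with Nikkomycin Z, against 1.55, 1.34 and 1.36 CPM in wild-type pull-downs with Nikkomycin Z, and 1.16, 0.580 and 0.358 CPM in GUL-1-GFP pull-downs against 1.29, 0.676 and 0.674 CPM in wild-type pull-downs of standard medium. Both were lower in every GUL-1-GFP pull-down than in every wild-type one with Nikkomycin Z, by a log2FC of -0.42 (SE 0.47, adjusted p = 0.604) and of -1.94 (SE 0.76, adjusted p = 0.0910). GUL-1-GFP inputs held 12 and 12 counts of NCU03038 with Nikkomycin Z and 5 and 22 counts in standard medium, whereas NCU09539 had 3 and 0 counts with Nikkomycin Z and 3 and 0 counts in standard medium. In wild-type inputs NCU03038 had 131, 199 and 80 counts with Nikkomycin Z and 38, 20 and 0 counts in standard medium, and NCU09539 had 43, 73 and 38 counts with Nikkomycin Z and 14, 0 and 0 counts in standard medium. Whether the genes of a pair share more than the name, and how any reads shared between them were divided, was not tested. The values of both pairs are uncertain to that extent.

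The remaining mRNAs were not called between the strains. With Nikkomycin Z S28 (NCU05599), which lies at the mRNA exit, had a log2FC of -1.50 (SE 0.56), S23 (NCU01552), a protein of the decoding centre, -1.30 (SE 0.67), and S21 (NCU08627, crp-7) -1.13 (SE 0.58). S2 (NCU06047), at the mRNA entry, had 0.50 (SE 0.51), S9 (NCU01949, un-16), which also borders the entry channel, 0.36 (SE 0.50), and S0 (NCU03393, rap-1) 0.24 (SE 0.69). None of these 6 passed the threshold. Relative to their inputs, S4 (NCU02181) and S0 were called higher in standard medium (log2FC 2.86 and 3.06, adjusted p = 0.0213 and 0.0387), and S11 (NCU03102), S19 (NCU07826) and S27 with Nikkomycin Z (log2FC 3.14, 2.34 and 2.00, adjusted p = 0.0429, 0.0402 and 0.0293). Of the 22 fits that left out a library, 14 lost the call of S11, 11 that of S19, whose log2FC ran from 1.34 to 9.70, and 8 that of S27. With protein-coding counts as library sizes S19 and S27 turned to -0.42 and -0.81, and S4, S0 and S11 were no longer called. The third pair of neighbouring genes, S5 and S25 (NCU09476), had log2FC of 0.10 and -0.68 with Nikkomycin Z and -0.57 and -0.02 in standard medium. In all, 16 of the 31 were called in at least 1 of the 12 comparisons and 15 in none. The share of all features called in at least 1 is not given here, so that this count is not read as particular to the 31.

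Other mRNAs of translation were read from the same list. RACK1 (NCU05810), a beta-propeller protein bound to the head of the 40S subunit, had 21.6, 16.8 and 25.3 CPM in GUL-1-GFP pull-downs with Nikkomycin Z, against 4.24, 5.24 and 4.35 CPM in wild-type pull-downs with Nikkomycin Z. In standard medium it had 4.69, 19.4 and 20.4 CPM in GUL-1-GFP pull-downs and 2.75, 21.7 and 10.4 CPM in wild-type pull-downs. The strains did not overlap with Nikkomycin Z and overlapped in standard medium, where replicate 1 was low in both strains, with a log2FC of 2.21 (SE 0.68, adjusted p = 0.0334) and 0.35 (SE 0.65, adjusted p = 1). Of 3 further small-subunit mRNAs whose product name lacks the words of the rule, none was called between the strains, and with Nikkomycin Z NCU00489 had a log2FC of 1.87, NCU00971 of -0.88 and NCU03394 of -0.36. Of 44 mRNAs of the 60S subunit 1 was called higher and 3 lower in GUL-1-GFP pull-downs than in wild-type ones with Nikkomycin Z, with a median log2FC of 0.03, and none in standard medium, with a median of -0.13. Of 12 mRNAs of the initiation factor eIF3, 1 was called higher and none lower with Nikkomycin Z, with a median of 0.65, and none in standard medium, with a median of -0.22. Of the mRNAs of the stress-granule proteins PAB and PUB, 1 of the 2 was called higher with Nikkomycin Z and none in standard medium.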

How the data were processed

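RNA from GFP pull-downs and inputs of 22 libraries in 8 groups was analysed from a table of counts per gene. The authors deposited estimated counts, whole numbers per gene that were neither scaled nor pooled. Per the submitters' processing notes the tools were CASAVA 1.8.2, HISAT2 2.1.0 and StringTie 1.3.3b, while the study's methods name TopHat and HTSeq, and no genome build was used here. Counts of 1 and 2 (862 and 1921 occurrences) were rarer than counts of 3 to 5 (4353, 4528 and 5340), so they were taken as estimates, although whole-read counts had been planned for. One ribosomal RNA feature, NCU15719, held 46.9% of all counts. The table held no other per-sample column, and no 2 libraries were identical. Columns of comparisons in the study's supplements were not used.

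Features passed edgeR's filterByExpr, library sizes were scaled by TMM, and the 8 groups were fitted together by edgeR's quasi-likelihood test (R 4.3.3, edgeR 4.0.16, limma 3.58.1), with p-values adjusted by Benjamini-Hochberg over all features tested. The scripts were tested on simulated data. The members and lists were chosen with earlier results of these data known. Values in every library were given for members called between the strains in pull-downs or in an interaction, for members sharing a name, and for the highest and lowest member of each comparison. Lengths were not at hand, so levels were not compared between genes. Alternatives were DESeq2 1.42.0, other scalings, no filter, protein-coding features only, a replicate block, the libraries of a comparison alone and leaving out each library. For medians, other sets of like abundance were used too, chosen on wild-type pull-downs or from the lowest to the highest member.

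Totals of 259583 to 28372176 counts, of which 59 to 5200733 were protein-coding, set the precision. A floor was 3 counts in each library.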

Additional observations from a re-analysis of the deposited data

Results flagged for a closer look

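Effects that differed between strains or media by a test of the difference itself were those of the interactions. Pull-down over input of S1 (NCU01452) exceeded that of the wild-type in the tagged strain by a log2FC of 4.20 in standard medium and 3.07 with Nikkomycin Z. With Nikkomycin Z the fitted difference was 8.57 for S7 (NCU00258), 8.98 for S26E (NCU04552), 9.37 for S12 (NCU06432), 9.23 for S20 (NCU06892), 8.92 for S17 (NCU07014), 10.35 for S6 (NCU08502) and 9.85 for S30 (NCU09089). Those 7 values depend on the prior count, since both GUL-1-GFP inputs with Nikkomycin Z were at 0. For S30, enrichment over input in GUL-1-GFP differed between Nikkomycin Z and standard medium by 11.44, with the same inputs at 0.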

How the results depend on the processing

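Numbers of the 31 mRNAs called are given as totals over both directions, without the share of all features under each setting. They show only how the counts moved. Relative to GUL-1-GFP inputs of standard medium 8 were called, against 14 with DESeq2, 28 with total counts as library sizes, 13 with protein-coding counts as library sizes, a setting chosen after seeing the data, and 0 with the libraries of the comparison alone. With Nikkomycin Z the total was 13, against 21 with total counts. In wild-type pull-down over input, standard medium, the 1 became 3 with DESeq2 or total counts, and 0 with protein-coding features only, the replicate block, protein-coding counts as library sizes or the libraries of the comparison alone. In GUL-1-GFP over wild-type pull-down with Nikkomycin Z the 4 became 2 with TMMwsp, 1 with total counts, 29 with protein-coding counts as library sizes and 17 with the libraries of the comparison alone, and in standard medium the 0 became 20 with protein-coding counts as library sizes. The strain by fraction interaction went to 0 in standard medium with protein-coding counts as library sizes or the libraries of the comparison alone, and to 13 with Nikkomycin Z with those libraries alone. The Nikkomycin Z by fraction interaction gave 0 with total counts, protein-coding features only, the replicate block or the libraries of the comparison alone. The Nikkomycin Z effect in wild-type inputs gave 1 with TMMwsp, 2 with no filter, 3 with the replicate block and 4 with DESeq2. The cause of these changes was not tested, except that fewer libraries enter the fits of a comparison alone. Signs turned for S27 (NCU00618, -0.81) and S19 (NCU07826, -0.42) for pull-down over input of GUL-1-GFP with Nikkomycin Z on protein-coding counts as library sizes, and for S30 (NCU09089, 0.53) in standard medium on total counts.

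Leaving out 1 library at a time gave 4 to 13 calls for pull-down over input of GUL-1-GFP in standard medium and 8 to 15 with Nikkomycin Z, 0 to 7 in wild-type pull-down over input in standard medium, 0 to 8 in GUL-1-GFP over wild-type pull-down with Nikkomycin Z, 0 to 2 and 1 to 11 in the strain by fraction interaction in standard medium and with Nikkomycin Z, 0 to 1 in the Nikkomycin Z by fraction interaction and 0 to 11 in the Nikkomycin Z effect in wild-type inputs. The counts of 13, 15, 7, 8 and both of 11 came without wild-type input replicate 1 of standard medium, and 8 also without its replicate 2. GUL-1-GFP over wild-type pull-down with Nikkomycin Z had 0 calls without GUL-1-GFP pull-down replicate 1 or 3 or wild-type pull-down replicate 3. Fits without a GUL-1-GFP input leave 1 library, assumed to vary like the other groups. Over all called mRNAs 602 of 792 such values kept direction and side of the threshold and 190 kept direction only, and in the other settings 231 of 288 kept both and 54 direction only.

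Replicate numbers gave no pairing by the labels. Pull-down and input of the same number correlated at between 0.014 and 0.345 in their deviations from the group means (mean 0.161, 10 pairs). Those of different numbers correlated at between -0.312 and 0.206 (mean -0.081, 20 pairs). Deviations cancel within a group, so that the second mean largely follows from the first and is no separate evidence. All 6 of 6 wild-type pull-downs were closest to the input of their own number, a hint from the data. With the replicate block 3 comparisons changed as given above. That block fits a common effect per number over all 8 groups, which is not a pairing of each pull-down with its input. Few protein-coding counts in the inputs limit every comparison with input.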
